A study of Mus musculus with 6 samples.

Results

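The genes described here are 36 immediate early and heat shock genes, taken by symbol from a deposited table of 55487 mouse genes: 31 immediate early genes and 5 genes of heat shock proteins. All 36 were in the table once, and all 36 had a mean of at least 1 normalized count, the minimum for testing. Immediate early genes are transcribed within minutes of a stimulus from factors that are already in the cell, such as serum response factor and the cAMP response element binding protein. Many encode transcription factors (the Fos, Jun, EGR, NR4A and KLF families), and others encode inhibitors that end the response. Heat shock genes encode chaperones that hold or refold damaged proteins, and heat shock factors drive them. In vessels both groups respond to flow, stretch, injury and handling of the tissue.

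RNA of the aortic media and intima, left after the adventitia was peeled away, was sequenced in 6 libraries. In 3 libraries the recipients were labelled Apoe-/- with the ChemR23 e/e allele (here labelled deficient), and in 3 they were labelled Apoe-/- alone (here labelled control). All recipients lacked Apoe, the lipoprotein ligand whose loss raises plasma cholesterol, and all carried transplanted Apoe-/- marrow with intact ChemR23. Transplantation took place at an age of 8 to 10 weeks, and 4 weeks later a 6-week Western diet began, with 21% fat and 0.15 to 0.2% cholesterol. The gene Cmklr1 encodes ChemR23, which binds chemerin, a chemoattractant made by fat and other tissues. The sources used here do not give what the e allele lacks or whether a library held 1 animal or a pool, so p-values measure the spread between these libraries.

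Labels and data disagree in several ways. The deposited table has a mean for a group it calls treated, and this equals the mean of the libraries labelled control (largest deviation 5.82e-11 normalized counts), while its control mean equals that of the libraries labelled deficient (1.16e-10). Cmklr1 was at a normalized count of 2388, 1788 and 1551 under the deficient label and 1396, 1028 and 1720.2 under the control label, so it was not lower where the label says deficient. Normalized counts of the Y-linked gene Ddx3y were 8.54 for replicate 1 and 0 for replicate 2 of the deficient label, against 6058 to 6796 for the other 4 libraries. Those of the X-linked gene Xist were 16083, 13145.5 and 373 for labelled-deficient replicates 1 to 3, against 8.87 to 22.0 for the controls. Labelled-deficient replicate 3 thus held Ddx3y like the controls but more Xist, so the 4 libraries with Ddx3y were not alike in Xist. All directions below follow the sample labels, and sex pattern and label cannot be told apart for replicates 1 and 2. Libraries held 30887855 to 38600604 reads assigned to genes. Smooth muscle markers summed to 1243670.3 to 1677881 normalized counts in the labelled-deficient group and 1292255 to 1371320.0 in the controls, with all 6 markers tested. These high sums fit a tissue rich in smooth muscle. Of these 6 markers only Myocd had groups apart, lower under the deficient label (log2 -0.84, limma adjusted p = 0.155, DESeq2 adjusted p = 0.00186). Markers of fibroblasts of the adventitia, the layer said to be peeled away, summed to 11680 to 18018 against 17449 to 23899 (all 6 tested). How much adventitia remained in each library was not tested. Macrophage markers summed to 8047 to 36837 against 4953 to 9561, with Lyz2 the largest part of the sum. Of these 8 markers, Cd68 and Lgals3 were higher with groups apart. Groups overlapped in Lyz2, C1qa, Adgre1, Csf1r, Itgam and Mrc1, and Mrc1 differed in the other direction (log2 -0.44). Erythroid markers summed to 1650.1 to 11075 against 92905 to 288940. Neutrophil markers summed to 106 to 216 against 486 to 999 (5 of 6 tested, as Ly6g was under the minimum). In bulk tissue fewer cells of a type and less RNA per cell cannot be told apart, and the part of these cell types in the results below was not tested.

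Promoters of 6 members that carry the patterns below are shown, 250 bases before to 50 after the start of a RefSeq gene (GRCm38.p6), read 5′ to 3′ on the strand of the gene. Fos (chr12:85473640-85473939, plus strand), Nr4a1 (chr15:101266596-101266895, plus), Btg2 (chr1:134079106-134079405, minus) and Egr2 (chr10:67537619-67537918, plus) are immediate early genes that were low together in control replicate 2. Maff (chr15:79347270-79347569, plus) and Hsph1 (chr5:149636266-149636565, minus) had groups that did not overlap. Capitals mark the cAMP response element core, TGACG or CGTCA, in Fos, Nr4a1, Btg2 and Maff, the CArG box bound by serum response factor in Egr2, and in Hsph1 a heat shock element of 3 alternating GAA and TTC units, each 2 bases from the next.
Fos: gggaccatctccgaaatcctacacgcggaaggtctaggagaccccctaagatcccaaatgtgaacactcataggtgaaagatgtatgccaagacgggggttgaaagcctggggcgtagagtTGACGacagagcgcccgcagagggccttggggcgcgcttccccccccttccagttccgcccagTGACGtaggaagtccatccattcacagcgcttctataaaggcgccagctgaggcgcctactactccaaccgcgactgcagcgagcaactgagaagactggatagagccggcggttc
Nr4a1: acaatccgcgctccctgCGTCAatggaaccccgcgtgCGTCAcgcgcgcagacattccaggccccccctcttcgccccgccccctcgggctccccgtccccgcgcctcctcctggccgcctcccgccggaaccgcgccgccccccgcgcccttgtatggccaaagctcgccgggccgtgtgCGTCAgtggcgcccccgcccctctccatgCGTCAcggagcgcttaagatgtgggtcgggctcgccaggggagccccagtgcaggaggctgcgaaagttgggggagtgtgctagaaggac
Btg2: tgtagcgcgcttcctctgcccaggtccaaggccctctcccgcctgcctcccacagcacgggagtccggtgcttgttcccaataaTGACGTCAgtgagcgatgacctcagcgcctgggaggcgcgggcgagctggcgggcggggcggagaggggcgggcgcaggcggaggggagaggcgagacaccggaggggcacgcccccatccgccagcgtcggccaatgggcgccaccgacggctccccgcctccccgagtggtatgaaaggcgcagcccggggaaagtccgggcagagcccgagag
Egr2: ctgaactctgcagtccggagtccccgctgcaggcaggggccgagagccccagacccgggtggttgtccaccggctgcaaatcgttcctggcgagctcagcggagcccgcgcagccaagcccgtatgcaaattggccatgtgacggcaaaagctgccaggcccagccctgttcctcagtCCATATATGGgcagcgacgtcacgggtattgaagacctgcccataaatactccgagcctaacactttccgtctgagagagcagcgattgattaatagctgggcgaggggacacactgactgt
Maff: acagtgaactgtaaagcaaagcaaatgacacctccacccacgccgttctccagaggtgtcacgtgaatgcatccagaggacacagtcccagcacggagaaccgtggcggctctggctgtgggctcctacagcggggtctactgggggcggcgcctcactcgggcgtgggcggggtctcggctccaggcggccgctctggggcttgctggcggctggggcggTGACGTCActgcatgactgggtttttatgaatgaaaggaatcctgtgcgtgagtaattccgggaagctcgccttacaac
Hsph1: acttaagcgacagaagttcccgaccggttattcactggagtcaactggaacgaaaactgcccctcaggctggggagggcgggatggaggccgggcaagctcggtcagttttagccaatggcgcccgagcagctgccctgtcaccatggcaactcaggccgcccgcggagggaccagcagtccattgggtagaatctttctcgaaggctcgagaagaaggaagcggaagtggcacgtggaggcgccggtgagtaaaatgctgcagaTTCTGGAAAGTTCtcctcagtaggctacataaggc

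RefSeq promoters were found for 30 of the 36 members, 25 immediate early and 5 heat shock genes, and Fosl1, Egr1, Egr3, Klf10, Ier2 and Myc were not matched. Both strands were searched, and a gene counted when any of its listed promoters held the letters. The TGACG or CGTCA core was in 15 of the 25 immediate early genes, against 23.1% of all 27025 genes with a promoter. The full palindrome TGACGTCA, which holds that core on both strands, was in Btg2, Dusp1 and Maff, 3 of the 25 against 2.03% of all genes. The EGR site (GCGGGGGCG or CGCCCCCGC) was in 8 of the 25, namely Dusp2, Fosb, Fosl2, Klf2, Klf4, Nr4a1, Socs3 and Zfp36, against 3.31%. CArG boxes were in Dusp5, Egr2 and Zfp36, 3 of the 25 against 1.81%, and the AP-1 site (TGACTCA or TGAGTCA) was in 0 of the 25 against 5.95%. Among the 5 heat shock genes, Hsph1 held the heat shock element of 3 units, found in 0.662% of all genes. A paired unit (GAANNTTC or TTCNNGAA, which the longer element contains) was in 4 of the 5, against 17.0%. The GC box (GGGCGG or CCGCCC) was in 23 of the 25 and in all 5, against 38.2%. These are matches of letters in a window of fixed length.

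Levels of different members were compared per length, as the mean normalized count over the 6 libraries per 1000 bases of annotated exon (GENCODE M21). The most abundant on this scale were Rhob, a small GTPase of the actin cytoskeleton, at 5058, the growth arrest gene Btg2 at 4192, Fos at 3802, the phosphatase gene Dusp1 at 3585 and the small heat shock protein gene Hspb1 at 3471. The least abundant were the phosphatase gene Dusp2 at 5.82, Fosl1 at 17.8 and Egr2 at 24.7. A single Fos family member thus accounted for most of that family: Fosl2 was at 305 and Fosb at 149.7 per 1000 bases. Several counts are uncertain because 50-base stretches are shared with another gene. Hspa1a shared 58.8% of its stretches with Hspa1b, Hspb1 48.8% with the pseudogene Hsp25-ps1, Fosl1 52.6% with Ccdc85b on the other strand and Jund 48.3% with Gm11175 on the other strand. The sources used here do not give the strand setting of the counting.

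The comparison between the labels asked which of these genes differed with the recipients' genotype. By limma over all 20669 genes tested, 0 of the 36 members passed an adjusted p of 0.05, where 0.135% of all genes passed (0.0726% higher and 0.0629% lower in the labelled-deficient group). edgeR called 0 members too (0.00658% of all genes), while DESeq2 called 4, all lower in the labelled-deficient group (11.1% of members, where it called 1.84% of all genes lower and 2.54% higher). At an unadjusted p under 0.05 in limma 5 members were lower (13.9% against 5.79% of all genes) and 0 higher (6.36% of all genes). In 6 members every labelled-deficient library lay below every control (16.7% against 8.24% of all genes), and in 0 the reverse held (8.8% of all genes). The libraries in which single members stood out are shown in the heat map of all 36 genes.

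**Figure D1:**
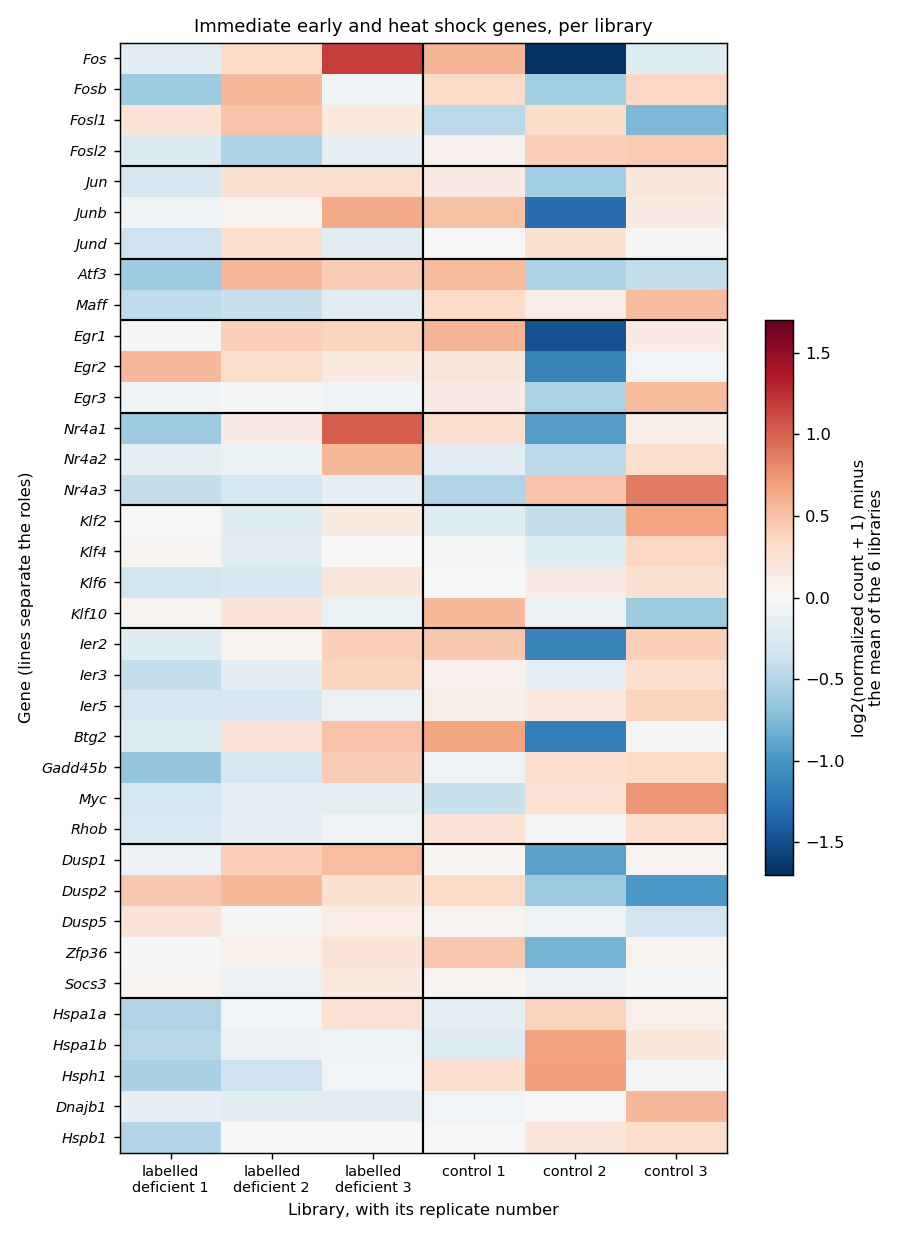
Each cell is the log2(normalized count + 1) of a gene (rows, grouped by role) in a library (columns) minus that gene's mean over the 6 libraries; red is higher and blue lower. Control replicate 2 is the lowest library for 15 of the 31 immediate early genes, and labelled-deficient replicate 1 is the lowest for 4 of the 5 heat shock genes in the bottom block.

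Maff encodes a small basic leucine zipper protein that pairs with other stress-responsive factors (chromosome 15, 79346621 to 79359076, GRCm38). Its normalized count was 699, 724 and 829 in labelled-deficient replicates 1 to 3 and 1174, 1024 and 1368 in control replicates 1 to 3. All labelled-deficient libraries lay below all controls, with means (± SD, n = 3 each) of 751 ± 69.1 and 1188 ± 172. On the scale of log2(normalized count + 1), the labelled-deficient mean minus the control mean was -0.66 (SE 0.12, 95% interval -0.94 to -0.37, limma adjusted p = 0.097). DESeq2 gave an adjusted p = 0.000307. Without labelled-deficient replicate 3 the difference was -0.73 and the limma adjusted p = 0.0448, the 1 setting in which limma called any member. In that fit limma called 427 of all genes, against 28 with all libraries. The labelled-deficient libraries left in it had Ddx3y at 8.54 and 0, so sex pattern and label cannot be told apart there. In the 4 libraries with Ddx3y the difference of Maff was -0.51, with a single labelled-deficient library that is assumed to vary like the controls.

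Fosl2 encodes Fra-2, a Fos family partner of Jun proteins that lasts longer after a stimulus than Fos (chromosome 5, 32135801 to 32157842). Labelled-deficient replicates 1 to 3 held 2439, 2003 and 2569 normalized counts of it, and the controls 3031, 3787 and 3883. The groups did not overlap, at 2337 ± 297 against 3567 ± 467 (SD, n = 3 each) and a log2 difference of -0.61 (SE 0.13, limma adjusted p = 0.118; DESeq2 adjusted p = 0.000888). Ier5, an immediate early gene that is linked to heat shock factor activity, was at 759, 767 and 863 against 998, 1048 and 1218. It showed the same order of the groups, with a log2 difference of -0.45 (SE 0.10, limma adjusted p = 0.145; DESeq2 adjusted p = 0.0117). Rhob was at 9851, 10495 and 11182 against 13865, 11527 and 14365. Its highest labelled-deficient library lay just under its lowest control, and its log2 difference was -0.33 (SE 0.10, limma adjusted p = 0.24; DESeq2 adjusted p = 0.0577).

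All 5 heat shock genes had a log2 difference below 0, with a median of -0.35 beside -0.01 over all genes tested. Hsph1 encodes a large chaperone that exchanges nucleotides for its smaller relatives (chromosome 5, 149614287 to 149636376). It was at 3887, 4474 and 5527 normalized counts under the deficient label and 6946, 9256 and 5649 in the controls. The groups were apart by a narrow margin between labelled-deficient replicate 3 and control replicate 3, and the log2 difference was -0.64 (SE 0.19, limma adjusted p = 0.239; DESeq2 adjusted p = 0.0168). Dnajb1, a co-chaperone, was at 1073, 1035 and 1037 against 1149, 1190.1 and 1727. The controls were higher, most of all replicate 3, and the log2 difference of -0.35 (SE 0.15, limma adjusted p = 0.411) was -0.16 without that replicate. Hspb1, which encodes a small heat shock protein that is abundant in smooth muscle, was at 2492, 3555 and 3495 against 3507, 4083 and 4337. Its groups overlapped by a single pair of libraries (log2 -0.33, SE 0.15, limma adjusted p = 0.42).

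Hspa1a and Hspa1b, neighbouring genes for the same inducible chaperone, differed less clearly. Hspa1b was at 512, 663 and 672 normalized counts under the deficient label and 612, 1146 and 813 under the control label (log2 -0.44, SE 0.22, limma adjusted p = 0.482). Hspa1a was at 447, 617 and 757 against 568, 839.6 and 676 (log2 -0.21, SE 0.21, limma adjusted p = 0.744). Groups overlapped in both, and control replicate 2 was the highest library of Hspa1a, Hspa1b and Hsph1. For Hspa1a the difference turned to 0.14 among the 4 libraries with Ddx3y. In the authors' deposited table, members with an adjusted p under 0.05 number 4, Maff (3.21e-04), Fosl2 (9.33e-04), Ier5 (0.0121) and Hsph1 (0.0171), where 4.38% of its 15771 genes with a value pass and 1.81% pass in that direction. The fold changes for them in the authors' deposited table are positive in its own direction, 0.59 for Maff and 0.54 for Fosl2 and Hsph1 on the log2 scale, and so lower in the libraries labelled deficient.

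**Figure D2:**
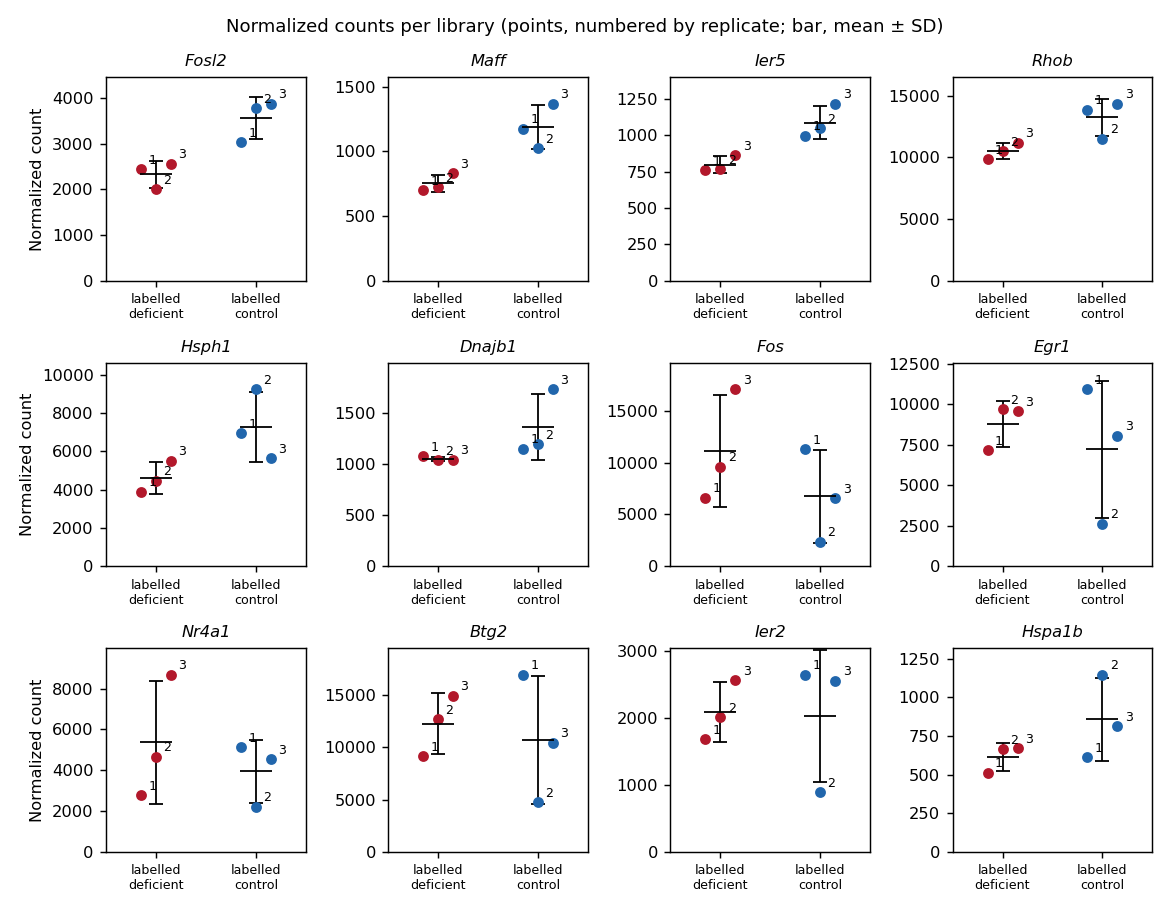
Points are the normalized counts of 12 members in each library, numbered by replicate, and bars are the mean ± SD of 3 libraries. The groups are apart in Fosl2, Maff, Ier5, Rhob, Hsph1 and Dnajb1, while in Fos, Egr1, Nr4a1, Btg2 and Ier2 control replicate 2 is the lowest of all libraries.

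Fos, Egr1 and Nr4a1 had the widest spread of the 36 members among libraries of the same label. Fos encodes the founding member of the AP-1 complex (chromosome 12, 85473890 to 85477273). Labelled-deficient replicates held 6636, 9614 and 17106 normalized counts and controls 11335, 2378 and 6584, a range of 7.19 times. Labelled-deficient replicate 3 was highest and control replicate 2 lowest, and the groups overlapped (11119 ± 5395 against 6766 ± 4481, SD, n = 3 each; log2 0.87, SE 0.55, limma adjusted p = 0.589). The difference was 0.25 without control replicate 2 and reached 1.38 without control replicate 1. Egr1, a zinc finger factor induced by growth factors and flow, was at 7171, 9713 and 9568 against 10944, 2637 and 8079. Control replicate 2 lay far below the other libraries, the next lowest being labelled-deficient replicate 1. Nr4a1, an orphan nuclear receptor, was at 2786, 4658 and 8682 against 5126, 2204 and 4549.5, with the same highest and lowest libraries as Fos.

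Control replicate 2 held less than 0.5 times the mean of the other controls for 8 members, Fos, Junb, Egr1, Egr2, Nr4a1, Ier2, Btg2 and Zfp36, or 22.2% of the 36. Among all genes tested 10.2% were that low in this library. Among the 11635 genes averaging 100 or more normalized counts 0.361% were, and 7 of the 32 members at that level, all of the 8 but Egr2. The ratio was 0.265 for Fos, 0.277 for Egr1, 0.323 for Junb, 0.342 for Ier2, 0.347 for Btg2, 0.426 for Egr2, 0.456 for Nr4a1 and 0.482 for Zfp36. Just outside the limit were Dusp1 at 0.515, Fosb at 0.532 and Egr3 at 0.540. Next came Jun at 0.597, Klf2 at 0.609, Atf3 at 0.626 and Nr4a2 at 0.697. Some members were not low there, with a ratio of 1.10 for Fosl2, 1.19 for Jund and 1.11 for Nr4a3 among transcription factors. Among feedback inhibitors the ratio was 0.931 for Socs3 and 1.03 for Dusp5. Btg2 was at 16966, 4763 and 10450.5 normalized counts in control replicates 1 to 3, and Zfp36, which encodes a protein that destabilizes messenger RNA, at 6593, 2793 and 5004. Ier2 was at 2641, 888 and 2552 and Junb at 2814, 807 and 2186. The same library was the lowest of all 6 for 15 of the 31 immediate early genes (48.4%), where 17.5% of all genes tested and 17.8% of genes averaging 100 or more had their lowest value there.

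Control replicate 2 was the highest library for 3 of the 5 heat shock genes, where 19.9% of all genes tested and 21.1% of genes averaging 100 or more had their highest value there. Its ratio to the mean of the other controls was 1.61 for Hspa1b, 1.47 for Hsph1 and 1.35 for Hspa1a, against 1.04 for Hspb1 and 0.828 for Dnajb1. The median ratio to the other controls was 1.35 for heat shock genes and 0.709 for immediate early genes. Over genes averaging 100 or more normalized counts the median ratio was 1.01, a value set largely by the scaling of the libraries. This library also had the highest sum of adipocyte markers, 43728 normalized counts against 9198 and 11157 in the other controls and 1870.3 to 17053 in the libraries labelled deficient, with all 6 markers tested and none at 0 in it. It was the smallest library, with 30887855 reads, and its share of mitochondrial reads, 4.83%, was the highest of a range of 3.55 to 4.83%. Labelled-deficient replicate 2 was close in both, with 31582056 reads and 4.79%. Its immediate early median was 0.15, in log2 relative to the mean of the controls. The part of adipose tissue, depth or RNA quality in the low immediate early counts was not tested.

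**Figure D3:**
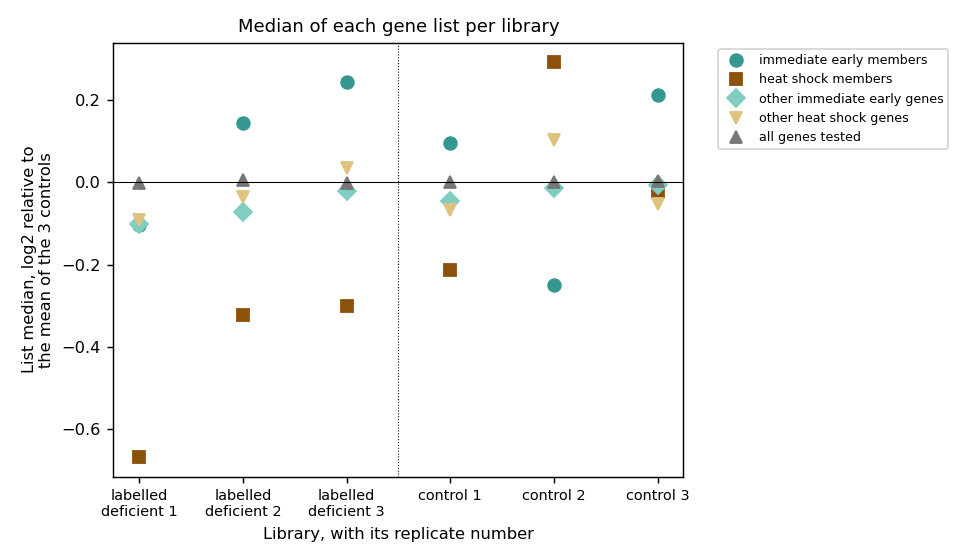
Symbols are list medians per library, in log2 relative to the mean of the 3 controls; the dotted line parts the labelled groups. In control replicate 2 immediate early members are at -0.25 and heat shock members at 0.29. The wider lists of other genes described below are at -0.014 (immediate early) and 0.10 (heat shock) in that library. All genes tested stay between -0.003 and 0.005 in every library, which is set largely by the scaling of the libraries.

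With this library left out, several differences between the labels changed sign. Jun turned from 0.17 to -0.08, Junb from 0.44 to -0.10, Egr1 from 0.51 to -0.11, Ier2 from 0.18 to -0.34, Btg2 from 0.35 to -0.15 and Zfp36 from 0.19 to -0.16 on the log2 scale. None of these passed the limma test with or without it. Fos shrank to 0.25, Egr2 from 0.66 to 0.26 and Dusp1 from 0.55 to 0.23, with the same sign. The median over the 31 immediate early genes was 0.09 with all libraries and -0.15 without control replicate 2, beside -0.01 for all genes tested. Nr4a1 depended on 2 libraries, at 0.38 with all, 0.00 once control replicate 2 was dropped and -0.05 once labelled-deficient replicate 3 was.

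The SD of log2(normalized count + 1) within a label, pooled over both labels, had a median of 0.42 over the immediate early genes and 0.31 over the heat shock genes. All genes tested had a median of 0.24, and genes averaging 100 or more normalized counts one of 0.12. It was over 0.5 in 10 of the 36 members, beside 29.9% of all genes tested, and in 9 of the 32 members averaging 100 or more, beside 4.08% of genes at that level. It reached 0.94 in Fos, 0.78 in Egr1, 0.74 in Nr4a1 and 0.72 in Junb. The members with the smallest spread were Socs3, an inhibitor of cytokine signalling, at 0.10, Ier5 at 0.13 and Rhob at 0.14. Socs3 was at 434, 393 and 471 normalized counts under the deficient label and 429, 390.4 and 409.8 in the controls. Its log2 difference was 0.07, with a 95% interval of -0.17 to 0.32.

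**Figure D4:**
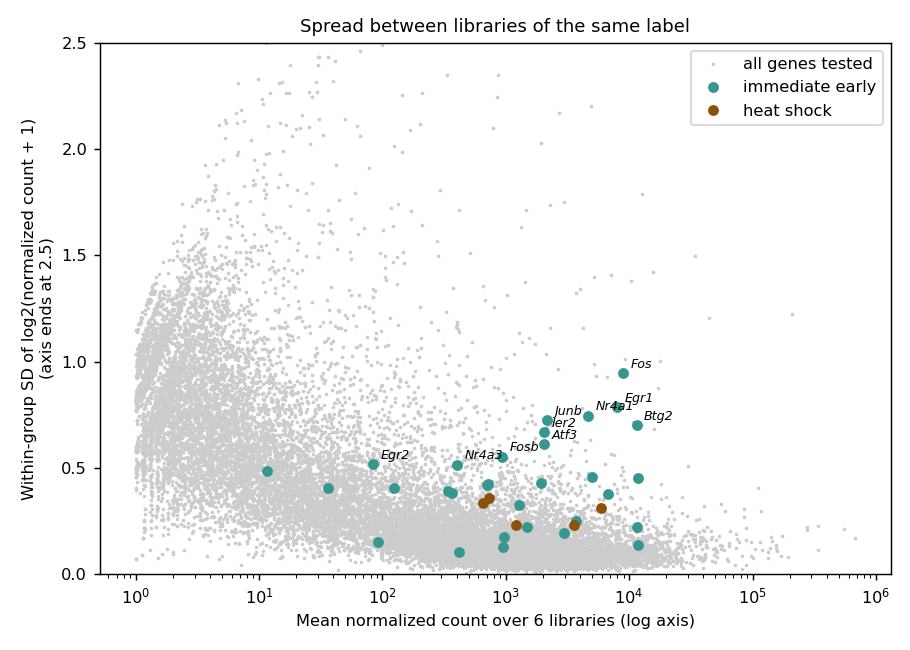
Each point is a gene, with its mean normalized count on a log axis and its SD of log2(normalized count + 1) within a label; members are coloured. Fos, Egr1, Nr4a1, Junb and Btg2 lie above the bulk of genes of like abundance, at 0.70 to 0.94, and the heat shock genes lie lower, at 0.23 to 0.36.

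The remaining Fos and Jun family members overlapped between the labels. Jun, the main partner of Fos, was at 5452, 7906 and 7981 normalized counts against 7281, 4423 and 7536 (log2 0.17, SE 0.23). Jund, which unlike the others is expressed steadily in resting cells, was at 2875, 4428 and 3230.1 against 3675, 4409 and 3715, and it was not low in control replicate 2. Fosb was at 589, 1309 and 857 against 1113, 599 and 1140.1. Its order of libraries differed from that of Fos in that labelled-deficient replicate 1 was lowest. Fosl1 was scarce, at 40.8, 48.6 and 39.4 against 25.0, 43.3 and 20.04 (log2 0.60, SE 0.33, limma adjusted p = 0.522). Atf3, a stress-induced repressor, was at 1269, 2854 and 2585 against 2807, 1335 and 1458, with low libraries under both labels.

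Among the other transcription factors no member had groups apart. Egr2 was at 116, 97.1 and 88.0 normalized counts against 90.3, 35.5 and 76.1, so that control replicate 1 lay among the labelled-deficient libraries (log2 0.66, SE 0.34, limma adjusted p = 0.498). Egr3 was at 342, 345 and 342 against 392, 245 and 515. The libraries labelled deficient were nearly equal in this gene and the controls lay on both sides of them. Nr4a2 was at 299, 308 and 492 against 292, 244 and 409, and Nr4a3 at 283, 305 and 343 against 263, 529 and 687. Nr4a3 had the only negative difference of this family (log2 -0.56, SE 0.31, limma adjusted p = 0.528), and unlike Nr4a1 it was not low in control replicate 2.

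KLF genes, several of which respond to flow in endothelium, overlapped between the labels, and limma, edgeR and DESeq2 called 0 of the 4. Klf2 was at 1846, 1609 and 2057 normalized counts against 1612, 1394 and 2965 (log2 -0.04, 95% interval -0.63 to 0.55). Klf4, which also acts in smooth muscle modulation, was at 1517, 1292 and 1479 against 1454, 1277 and 1887. Klf6 was at 9202, 9474 and 13097 against 11450.5, 12628 and 13729.6 (log2 -0.27, SE 0.14, limma adjusted p = 0.506), with labelled-deficient replicate 3 within the controls. Klf10, induced by TGF-beta, was at 722, 811 and 646 against 1026, 656 and 462. Control replicate 3 was the highest library for Klf2, Klf4 and Klf6 and the lowest for Klf10.

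All 5 feedback inhibitors had a difference above 0, and 0 of them passed limma, also at an unadjusted p under 0.05. Dusp1, a phosphatase that inactivates MAP kinases, was at 10579, 14959 and 16241 normalized counts against 11652, 6029 and 11756 (log2 0.55, SE 0.27, limma adjusted p = 0.478). Labelled-deficient replicate 1 lay under control replicates 1 and 3, so the groups overlapped. Dusp2 was at 15.2, 16.2 and 13.1 against 13.8, 6.66 and 5.01, near the limit of 2.58 to 3.33 normalized counts that 3 reads stand for, and Dusp5 at 107, 92.8 and 100.1 against 94.6, 86.5 and 73.1. In both genes control replicate 1 overlapped with the labelled-deficient libraries. Of the remaining early response genes, Ier3 was at 948, 1102 and 1636 against 1314, 1136 and 1522, and Gadd45b, a stress sensor, at 429, 549 and 907 against 649, 823 and 857. Myc, a growth factor-induced transcription factor, was at 95.9, 106 and 106 against 91.2, 141 and 200.4 (log2 -0.42, SE 0.27, limma adjusted p = 0.603). In Ier3 and Gadd45b labelled-deficient replicate 3 was the highest library of all, and in Myc control replicate 3 was.

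**Figure D5:**
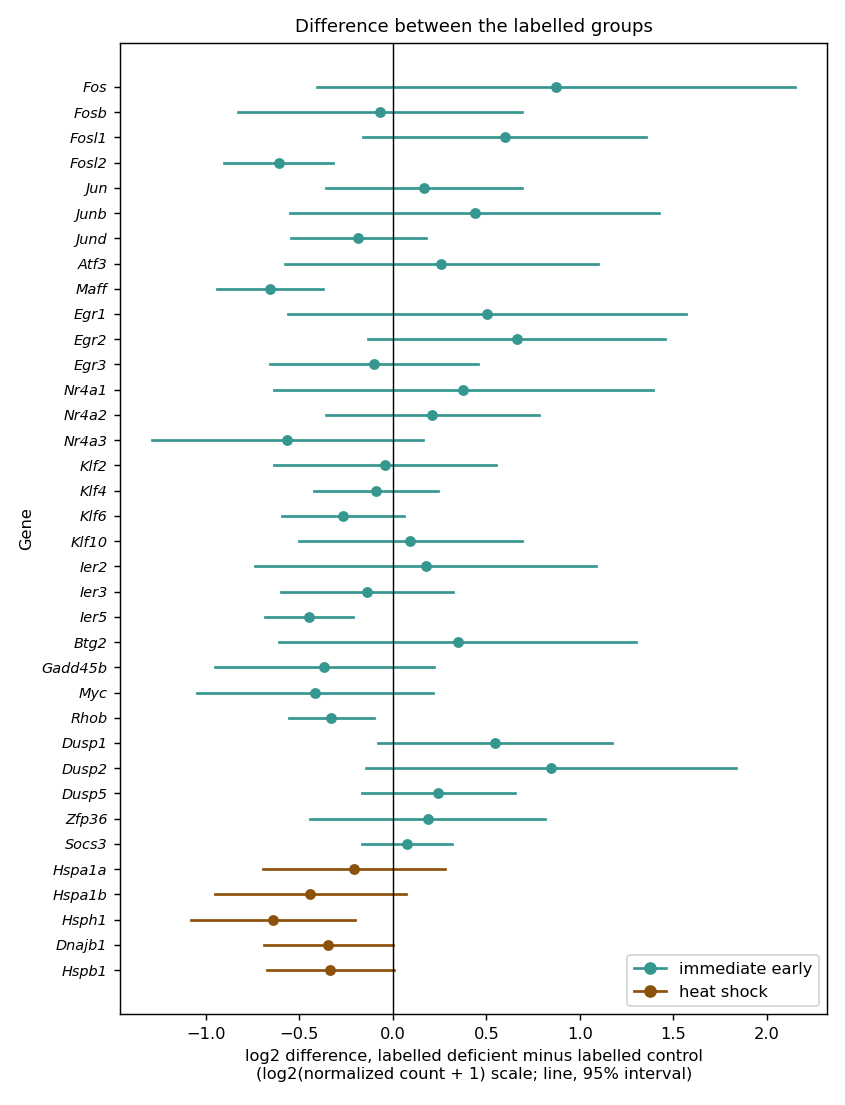
Points are log2 differences, labelled deficient minus labelled control, with limma 95% intervals, for 31 immediate early and 5 heat shock genes. The intervals of Fosl2, Maff, Ier5, Rhob and Hsph1 lie wholly below 0, those of the other 31 genes include 0, and that of Fos runs from -0.40 to 2.15.

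Other genes of both pathways were read from lists that hold none of the members. Of 51 other immediate early genes and upstream regulators tested, limma called 1 higher and 1 lower, where it called 0.135% of all genes. Cebpd, a stress-induced transcription factor, was at 332, 312 and 266 normalized counts under the deficient label and 583, 691 and 577 in the controls. It fell by 1.02 (SE 0.12, limma adjusted p = 0.045), and every labelled-deficient library lay below every control. Bhlhe40, a repressor that acts in the clock and in hypoxia, was at 1244, 1337 and 1223 against 648, 597 and 801 and rose by 0.90 (SE 0.12, limma adjusted p = 0.0455). With labelled-deficient replicate 1 left out, limma gave Cebpd an adjusted p = 0.157 and Bhlhe40 0.174, and with replicate 2 left out 0.109 and 0.116. Leaving out control replicate 1 (0.184 for each gene) or 2 (0.0889 for each) ended both calls too, and control replicate 3 that of Cebpd (0.117). In each of the first 4 of these fits limma called 0 of all genes, against 28 with all libraries. The difference itself ran from -1.09 to -0.93 for Cebpd and from 0.81 to 1.03 for Bhlhe40 over the 6 fits that leave out a library. edgeR gave an adjusted p = 0.0659 for each, and DESeq2 called 6 genes of the list higher and 6 lower, beside 2.54% and 1.84% of all genes. Groups were apart in 9 lower (17.6%) and 6 higher (11.8%) of the 51, beside 8.24% and 8.8% of all genes.

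The 13 upstream regulators, among them Srf, the Elk factors, Creb1 and the MAP kinases, had a within-label SD with a median of 0.08, against 0.31 for the 38 other rapid response genes tested. Srf itself was at 2740.01, 2644 and 3164 normalized counts against 2878, 3106 and 3134 (log2 -0.10, SE 0.09, limma adjusted p = 0.708). Its ratio to the other controls in control replicate 2 was 1.03. Fos and Egr1, which were low there, are known targets of this factor, and its activity was not tested. Srf and, below, Hsf1 were named after their values were seen. Of the 51 other genes, 3 were under 0.5 times the other controls in that library, Ccn1, Plk3 and Cxcl1 (ratios 0.414, 0.486 and 0.35), named after their values were seen. Over the 51 genes the median ratio there was 0.983, and it was the lowest library for 13 of them and the highest for 14. Ccn1, a matrix protein gene induced by serum response factor, was at 7821, 11021 and 28728 against 18788, 9411 and 26651. Csrnp1, Nfil3 and Per1 were lower with groups apart, and Dusp6 and Rgs2 higher with groups apart, also named after their values were seen. Nfil3, a clock-linked repressor, was at 301, 206 and 219 against 729, 1239 and 487 (log2 -1.67, SE 0.31, limma adjusted p = 0.098; DESeq2 adjusted p = 9.82e-07). The clock gene Per1 was at 969, 916 and 958 against 2572, 1569 and 1297 (log2 -0.87, SE 0.22, limma adjusted p = 0.181, DESeq2 adjusted p = 0.00135).

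Of 33 other heat shock genes limma called 0 and edgeR 0. At an unadjusted p under 0.05 in limma 3 were higher and 5 lower, beside 6.36% and 5.79% of all genes. DESeq2 called 1 higher and 2 lower, beside 2.54% and 1.84% of all genes. Groups were apart in 6 lower (18.2%) and 3 higher (9.09%) of the 33, beside 8.24% and 8.8%. Dnajb4, a co-chaperone abundant in muscle, was at 3486, 4058 and 5298 normalized counts under the deficient label and 7482, 8501 and 9809 in the controls. The groups were far apart (4281 ± 926 against 8597 ± 1167, SD, n = 3 each; log2 -1.02, SE 0.16, limma adjusted p = 0.0648; DESeq2 adjusted p = 3.59e-07). Hmox1, haem oxygenase, was at 611, 1183 and 437 against 197, 331 and 251 (log2 1.42, SE 0.35, limma adjusted p = 0.171, DESeq2 adjusted p = 0.000266), the opposite direction. Macrophages express this gene. Their marker sums, of which Lyz2 was the largest part, were 25444, 36837 and 8047 in labelled-deficient replicates 1 to 3 against 4953 to 9561 in the controls. Not all macrophage markers were higher under the deficient label, and the part of these cells was not tested. Dnajb2 was at 2376, 2199 and 2124 against 3008, 2750 and 2569 (log2 -0.31, SE 0.08, limma adjusted p = 0.192, DESeq2 adjusted p = 0.0472), again with groups apart.

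Of the 3 most abundant chaperone genes of that list, none passed limma. Hsp90ab1 was at 40546, 38543 and 44189 normalized counts against 43612, 40207 and 40924 (log2 -0.02, 95% interval -0.21 to 0.17), and Serpinh1, the collagen chaperone, at 25103, 25192 and 28245 against 20839, 24076 and 21663 (log2 0.24, SE 0.09, limma adjusted p = 0.326). Every labelled-deficient library lay above every control in Serpinh1. Hspa8, the constitutive relative of Hspa1a, was at 18299, 22328 and 28520 against 26552, 36819 and 28583 (log2 -0.42, SE 0.18, limma adjusted p = 0.403). Control replicate 2 was its highest library, as for 18 of the 33 genes (54.5%, beside 21.1% of genes averaging 100 or more). The median difference of the 33 genes was -0.02, beside -0.35 for the 5 heat shock members. Hsf1, the main heat shock factor, was at 1211, 1062 and 1272 against 1276, 1233 and 1228 (log2 -0.08, SE 0.09, limma adjusted p = 0.762).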

How the data were processed

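Aortic RNA of 6 libraries was sequenced as paired-end 50 bp reads from TruSeq Stranded mRNA libraries, per the labels' protocols. The submitters' processing notes name GRCm38 as the build and list DESeq2 1.36.0, featureCounts 2.0.1, HISAT2 2.2.1, R 4.2.0 and bcl2fastq 2.20. The deposited signal is a normalized count: reads per gene after division by the authors' scaling factor for that library, judged from the values. The authors' deposited table also holds a log2 fold change, further score columns (its standard error and test statistic) and a p-value with its adjusted p-value. Within 0.001, 100% of the values above 0 in each library were whole multiples of the smallest, and whole reads were recovered so.

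Values were transformed to log2 after adding a pseudocount of 1, and the main test was limma 3.58.1 with a mean-variance trend on 20669 genes averaging 1 or more, two-sided, with Benjamini-Hochberg adjustment over all of them. edgeR 4.0.16 (quasi-likelihood, TMM) and DESeq2 1.42.0 were run on the recovered reads. Other alternatives were pseudocounts of 0.5 and 5, no filter, a mean of at least 10, TMM scaling, each library left out, and the 4 libraries with Ddx3y above 100. The limma, edgeR and DESeq2 fits of all 6 libraries were tested on simulated counts with 200 changed genes, and the other settings were not. Of 100 genes changed by a log2 of 1, limma recovered 82, edgeR 80 and DESeq2 87. Unchanged genes called numbered 9 with limma, 7 with edgeR and 38 with DESeq2. Work ran in R 4.3.3 and Python 3.11.15.

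Members, lists, the limits of 0.5 times and of a mean of 100 and the genes named were chosen with earlier results of these data known. All 36 members are named; from the other lists, every called gene or else the 3 with the lowest p and the 3 with the highest value. Replicate numbers follow the order of deposition and pair nothing. The limit that 3 reads stand for covers counting error only.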

Additional observations from a re-analysis of the deposited data

How the results depend on the processing

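No paired analysis was possible because the labels carry no replicate numbers. Of 36 members, limma called 0 with all libraries and 0 to 1 with a library left out, and DESeq2 called 4. Members at an unadjusted p under 0.05 numbered 5 (13.9%, beside 12.2% of all genes), against 10 with DESeq2 and 6 to 13 with a library left out. The share of all genes was not computed for the other settings, so those counts cannot be read as a result about the members. Of the other immediate early genes 2 were called, against 0 with a mean of at least 10, 0 with edgeR, 12 with DESeq2, 0 among the 4 libraries with Ddx3y and 0 to 4 with a library left out. Of the other heat shock genes 0 were called, against 1 with no filter, 3 with DESeq2 and 0 to 2 with a library left out. Over all genes limma called 28, against 91 with no filter, 1 with a mean of at least 10, 1 with edgeR, 713 with DESeq2, 0 among the 4 libraries with Ddx3y and 0 to 427 with a library left out. The immediate early median ran from -0.147 to 0.191 and the heat shock median from -0.452 to -0.269 with a library left out. The causes were not tested. Among the 4 libraries with Ddx3y the sign changed for Klf2 (0.129), Klf6 (0.059), Klf10 (-0.068), Ier3 (0.315), Gadd45b (0.235) and Hspa1a (0.143). With a library left out, 22 of 36 members kept their sign. The other ranges were -0.370 to 0.215 for Fosb, -0.080 to 0.35 for Jun, -0.102 to 0.80 for Junb, -0.106 to 0.92 for Egr1, -0.39 to 0.145 for Egr3, -0.046 to 0.77 for Nr4a1, -0.020 to 0.42 for Nr4a2, -0.26 to 0.286 for Klf2, -0.22 to 0.065 for Klf4, -0.182 to 0.39 for Klf10, -0.340 to 0.45 for Ier2, -0.36 to 0.030 for Ier3, -0.147 to 0.77 for Btg2 and -0.161 to 0.46 for Zfp36. Dusp2 and Fosl1 had the fewest reads, which limits their precision.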
